A study of Mus musculus with 21 samples.

Results

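At equal nominal surface area, 3 arrays of RAW 264.7 cells given 10 nm amorphous silica at 5 µg/ml were set against 3 arrays of the same cells given 500 nm silica at 250 µg/ml. These 6 arrays, chosen by their titles, belong to a series of 21 arrays from 7 groups of 3. RAW 264.7 is a mouse macrophage-like tumour line, here exposed to particles for 2 h without serum. For spheres of equal density, area follows dose divided by diameter, which was 0.5 µg/ml per nm in both groups. The 500 nm low dose then held 50 times the mass of the 10 nm low dose, and the 10 nm low dose 2500 times the particle number of the 500 nm low dose. Both were compared with untreated cells. A further pair with equal area, 4 times the low one, was formed by 10 nm silica at 20 µg/ml (the mid dose) and 500 nm silica at 1000 µg/ml (the high dose). How much of either particle settled on or entered the cells was not measured, and the labels do not say whether untreated cells were also moved to serum-free medium. Nor do they name separate cultures for the replicates, and the p-values therefore rest on array-to-array spread that may be technical only.

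Amorphous silica is the non-crystalline form of silicon dioxide. Macrophages bind and engulf such particles, and contact with a stimulus sets off MAP kinase cascades within minutes. These cascades switch on immediate early genes such as the Egr, Fos, Jun and Atf3 transcription factors, followed by chemokines, growth factors and the phosphatases and inhibitors that shut the signal down. A parallel route through NF-kB controls many cytokine genes and its own inhibitors.

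The values are RMA summaries of probe sets, given here on a log2 scale, so that a difference of 1 is a doubling. Array medians differed little over these 6 arrays, from 6.22 to 6.25. Correlations across probe sets were 0.992 to 0.997 within the groups and 0.992 to 0.997 between them. The 12 measured macrophage markers had array medians of 9.89 to 10.09 in 10 nm and 10.06 to 10.24 in 500 nm exposed cells, and none passed the test between the sizes (0 by limma; 0 also at an unadjusted p under 0.05). Medians of the marker lists of 7 other cell types lay between 3.81 and 5.00 in these 6 arrays. One measure of RNA quality moved with the groups. The 3 prime minus 5 prime difference of the Gapdh and beta-actin control probe sets, which grows when RNA is degraded or copied incompletely, was 0.47 to 0.55 in 10 nm and 0.15 to 0.38 in 500 nm exposed cells. The groups did not overlap (0.50 ± 0.04 and 0.28 ± 0.12, SD, n = 3 each; exact two-sided permutation p = 0.1, the smallest that 3 against 3 arrays allow). Untreated replicate 3 stood apart in this index, at 1.15 against 0.17 in each of the other untreated arrays.

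Cells given 10 nm silica had higher levels of 10 genes than cells given 500 nm silica. In a limma fit over all 21 arrays, 11 of 22626 probe sets passed an adjusted p of 0.05 (0.0486%), and all 11 were higher with 10 nm silica. They belong to 10 genes: the growth factor gene Hbegf, the chemokine gene Ccl4, the transcription factor genes Egr2 and Klf9, the signalling regulator genes Dusp16, Gadd45b, Sertad1, Phlda1 and Pard6b, and the long non-coding RNA gene Neat1. No probe set was called lower (0 by limma, with 262 lower and 570 higher at an unadjusted p under 0.05). Some alternatives gave lower calls, 4 with the replicate number as a block and 26 with array weights. There were 5 with the index of RNA quality as a covariate, 1 in the brighter probe sets and 1 with 1 probe set per gene. The called differences ran from 0.61 to 1.45, while the median over all probe sets was 0.01 and the 5th and 95th percentiles were -0.24 and 0.25. Called or not, 32 probe sets differed at least 2-fold, 7 of them higher and 25 lower with 10 nm silica. For all 11 the 3 arrays of 10 nm exposed cells lay above the 3 of 500 nm exposed cells, as they did for 6.22% of all probe sets. The calls rest on few arrays. Without 500 nm replicate 3 none remained (0 by limma; 532 at an unadjusted p under 0.05; the smallest adjusted p was 0.0563), without 500 nm replicate 2 there were 4, and without 10 nm replicate 2 there were 5. All 11 differences stayed positive in these 3 fits, between 0.54 and 1.57. Hbegf, Egr2, Ccl4 and Sertad1 lost their calls without 500 nm replicate 3 alone (adjusted p = 0.0563 each), Dusp16 also without 500 nm replicate 2 (adjusted p = 0.0559), and the other 6 probe sets without any of 3 to 6 of the 6 arrays, with adjusted p up to 0.337. In a fit on these 6 arrays alone Hbegf, Egr2, Phlda1 and Klf9 kept their calls, while Ccl4 and Sertad1 (adjusted p = 0.0644 each), Neat1 (0.0723), Dusp16 (0.0935), Pard6b (0.107) and Gadd45b (0.0935 and 0.159) lost them. With the 3 prime minus 5 prime index as a covariate, 43 probe sets were called, among them all 11.

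**Figure D1:**
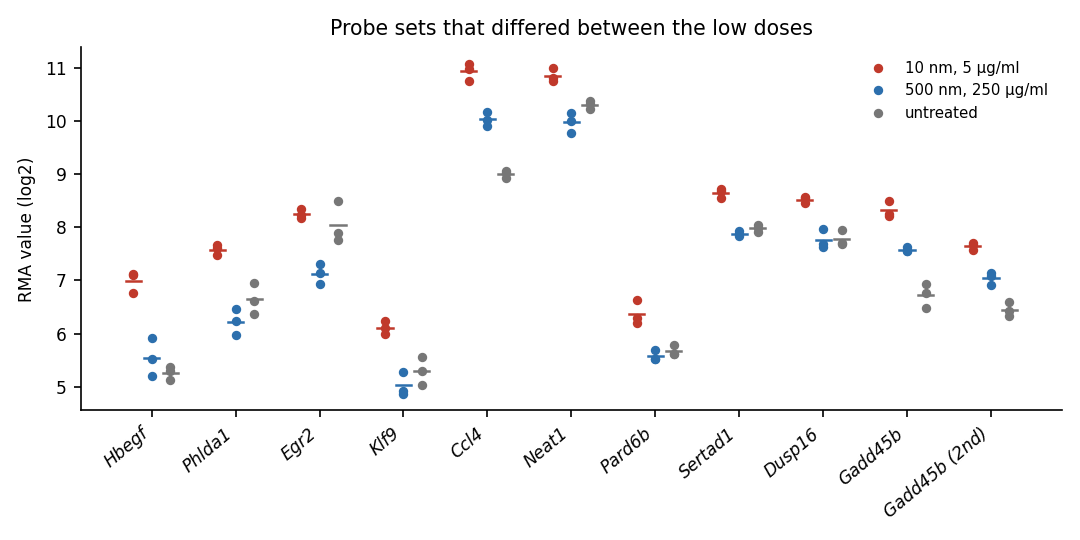
Log2 RMA value of each of the 11 called probe sets on the 3 arrays of 10 nm low dose, 500 nm low dose and untreated cells (points; bars are means). In each of them the 10 nm points lie above the 500 nm points, while the place of the untreated points differs from gene to gene.

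Among the called genes, the chemokine and the growth factor rose most over untreated cells with 10 nm silica. Hbegf encodes a membrane-anchored growth factor of the EGF family that is shed to act on EGF receptors. Its level was 7.11, 6.76 and 7.12 in 10 nm exposed cells, against 5.91, 5.21 and 5.52 in 500 nm exposed cells and 5.13, 5.30 and 5.37 in untreated cells. All 10 nm arrays thus lay above all others, and the 500 nm and untreated arrays overlapped. The size difference was 1.45 ± 0.19 (SE; 2.73-fold; adjusted p = 0.00372). Against untreated cells Hbegf rose by 1.73 with 10 nm silica (adjusted p = 3.95e-05), while the difference with 500 nm silica was 0.28, with a 95% interval from -0.11 to 0.67 (adjusted p = 1). A second, dimmer Hbegf probe set gave 0.78 ± 0.15, which did not pass (adjusted p = 0.099).

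Ccl4 encodes a chemokine that draws monocytes and lymphocytes. It stood at 10.98, 11.07 and 10.75 in 10 nm exposed cells, against 10.17, 10.01 and 9.90 in 500 nm exposed cells and 8.92, 9.02 and 9.05 in untreated cells. The 3 groups formed 3 separate steps. The size difference was 0.91 ± 0.12 (1.87-fold; adjusted p = 0.00372), on top of rises over untreated cells of 1.93 with 10 nm (adjusted p = 2.45e-08) and 1.03 with 500 nm silica (adjusted p = 0.00018). Gadd45b, a stress-induced gene whose protein binds upstream kinases of the p38 and JNK pathways, showed the same 3 steps. Its level was 8.21, 8.24 and 8.50 in 10 nm exposed cells, against 7.55, 7.55 and 7.63 in 500 nm exposed cells and 6.49, 6.93 and 6.77 in untreated cells. The size difference was 0.74 ± 0.12 (1.67-fold; adjusted p = 0.0193), and both sizes were called above untreated cells, by 1.59 with 10 nm and 0.85 with 500 nm silica. A second Gadd45b probe set gave 0.61 ± 0.10 (adjusted p = 0.0328) and the remaining one 0.22 ± 0.25 (adjusted p = 1). The first Gadd45b probe set lost its call after quantile normalization (adjusted p = 0.0553) and after scaling (adjusted p = 0.0896). The second probe set kept its call in both settings (adjusted p = 0.00595 and 0.00766).

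Dusp16, Sertad1 and Pard6b were called above untreated cells with 10 nm silica, and their 500 nm levels differed from untreated by -0.03, -0.11 and -0.09. Dusp16 encodes a dual-specificity phosphatase that inactivates the MAP kinases JNK and p38. It had values of 8.56, 8.55 and 8.45 in 10 nm exposed cells, against 7.97, 7.68 and 7.62 in 500 nm exposed cells and 7.69, 7.71 and 7.95 in untreated cells. The 10 nm arrays stood apart and the other groups overlapped, with a size difference of 0.77 ± 0.10 (1.70-fold; adjusted p = 0.00392). Sertad1, a co-regulator of E2F-driven transcription, had values of 8.54, 8.72 and 8.69 in 10 nm exposed cells, against 7.88, 7.92 and 7.83 in 500 nm exposed cells and 7.98, 8.05 and 7.91 in untreated cells. Its size difference was 0.77 ± 0.10 (1.71-fold; adjusted p = 0.00372). Here too only the 10 nm arrays stood apart. Pard6b, a scaffold of the polarity complex that holds atypical protein kinase C, read 6.19, 6.63 and 6.30 with 10 nm silica, against 5.53, 5.53 and 5.69 with 500 nm silica and 5.61, 5.79 and 5.62 without particles. The difference was 0.79 ± 0.13 (1.73-fold; adjusted p = 0.0272), and its second probe set gave 0.41 ± 0.11, which did not pass (adjusted p = 0.421). Against untreated cells the 10 nm rises were 0.74 for Dusp16 (adjusted p = 0.000851), 0.67 for Sertad1 (adjusted p = 0.00143) and 0.70 for Pard6b (adjusted p = 0.0127). For the 500 nm differences the 95% intervals ran from -0.25 to 0.19, from -0.32 to 0.11 and from -0.37 to 0.19.

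Egr2 was called below untreated cells with 500 nm silica and was not called above them with 10 nm silica. Egr2, also called Krox20, is a zinc finger transcription factor of the immediate early class. Its level was 8.17, 8.35 and 8.23 in 10 nm exposed cells, against 7.30, 7.14 and 6.94 in 500 nm exposed cells and 7.89, 7.76 and 8.50 in untreated cells. The 10 nm and untreated arrays overlapped, and the 500 nm arrays lay below both. The size difference was 1.12 ± 0.15 (2.18-fold; adjusted p = 0.00372). Against untreated cells Egr2 fell by 0.92 with 500 nm silica (adjusted p = 0.00515). This adjusted p was 0.0557 without 500 nm replicate 3, and 0.493 in a fit on the 500 nm low and untreated arrays alone. With 10 nm silica the difference from untreated cells was 0.20, with an interval from -0.11 to 0.52 (adjusted p = 0.93). A second Egr2 probe set gave a size difference of 0.90 ± 0.18 (adjusted p = 0.102). Arc, an SRF target known from neurons and placed here in the actin and SRF list, had the same shape. It read 5.85, 5.78 and 6.0 with 10 nm silica, against 4.91, 5.33 and 5.36 with 500 nm silica and 5.77, 5.74 and 6.18 without particles. The Arc size difference of 0.68 ± 0.14 did not pass (adjusted p = 0.103), and its fall of 0.70 with 500 nm silica did (adjusted p = 0.0288).

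Promoters of the called genes were searched in the RefSeq table of mouse build GRCm38.p6, which held 6 of the 10 genes with 10 start sites. Egr2 is shown because it was the only one of the 6 with a CArG box, the motif bound by serum response factor (SRF), in the 250 bases before a start. A match was present before 4 of its 5 listed starts, but several of these windows overlap and hold the same box. Over the whole table, 1.47% of the 32851 promoters and 1.62% of genes had a match. Each distinct box is shown once below. In the windows shown, plus strand, the capitals mark the box, which begins at position -72 in both, counted back from the start.
Egr2 chr10:67537316-67537565: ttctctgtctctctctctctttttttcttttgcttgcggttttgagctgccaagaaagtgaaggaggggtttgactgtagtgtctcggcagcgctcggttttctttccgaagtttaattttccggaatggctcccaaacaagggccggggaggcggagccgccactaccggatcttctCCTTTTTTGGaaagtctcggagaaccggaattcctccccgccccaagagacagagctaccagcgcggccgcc
Egr2 chr10:67537619-67537868: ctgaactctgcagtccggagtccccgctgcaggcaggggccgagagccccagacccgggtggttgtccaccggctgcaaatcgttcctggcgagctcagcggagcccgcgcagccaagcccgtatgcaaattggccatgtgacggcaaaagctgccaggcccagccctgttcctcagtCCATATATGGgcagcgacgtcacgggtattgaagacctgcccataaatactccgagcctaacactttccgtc
No window of the 6 genes held the AP-1 motif TGACTCA (4.46% of all promoters) or the cyclic AMP motif TGACGTCA (1.55%). The kB motif GGGNNTTCC, present in 4.98%, matched before Pard6b alone, at position -221. Both strands were read, and a match describes letters in a window, not a bound site.

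The mean levels of Phlda1, Klf9 and Neat1 in the 2 particle groups lay on either side of the untreated mean. This also held for Egr2 and, narrowly on the 500 nm side, for Dusp16, Sertad1 and Pard6b. For Phlda1 and Klf9 the 500 nm and untreated arrays overlapped. Phlda1 encodes a pleckstrin homology-like protein induced by growth factors and stress. Its level was 7.47, 7.60 and 7.66 in 10 nm exposed cells, against 6.47, 5.97 and 6.23 in 500 nm exposed cells and 6.36, 6.61 and 6.96 in untreated cells. The size difference of 1.35 ± 0.21 (2.55-fold; adjusted p = 0.0143) was made up of 0.94 above untreated with 10 nm (adjusted p = 0.0512) and -0.42 with 500 nm silica (adjusted p = 0.973), neither of which passed alone. After quantile normalization its adjusted p was 0.0553. Neat1, the long non-coding RNA that builds nuclear paraspeckles, read 10.80, 10.99 and 10.74 with 10 nm silica, against 10.14, 10.00 and 9.77 with 500 nm silica and 10.31, 10.23 and 10.38 without particles. Untreated arrays lay between the particle groups without overlap. The Neat1 size difference was 0.88 ± 0.13 (1.84-fold; adjusted p = 0.0122), with 0.54 against untreated for 10 nm (adjusted p = 0.0981) and -0.34 for 500 nm silica (adjusted p = 0.742).

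Klf9, a Krüppel-like zinc finger transcription factor, was called by 1 of its 7 probe sets, which is not the brightest and was named after its values were seen. That probe set read 6.11, 6.23 and 6.0 with 10 nm silica, against 5.28, 4.92 and 4.87 with 500 nm silica and 5.30, 5.03 and 5.55 without particles. The size difference was 1.09 ± 0.16 (2.12-fold; adjusted p = 0.0066), with 0.82 against untreated for 10 nm (adjusted p = 0.0138) and -0.27 for 500 nm silica (adjusted p = 1). The brightest Klf9 probe set gave 0.86 ± 0.20 (adjusted p = 0.217), and the other 5 gave 0.03 to 0.72, none of them called.

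The genes nearest to the threshold were Slc20a1 and Cd28, each with an adjusted p of 0.0509. Slc20a1, a sodium-dependent phosphate transporter named after its values were seen, was higher in 10 nm exposed cells by 0.60 ± 0.11. Cd28, known as a co-stimulatory receptor of T cells, pointed the other way. It read 7.36, 7.66 and 7.68 with 10 nm silica, against 8.24, 8.35 and 8.43 with 500 nm silica and 7.56, 7.25 and 7.79 without particles. The size difference was -0.77 ± 0.14, and the 500 nm cells were called above untreated cells by 0.81 (adjusted p = 0.00865). Cd28 was called lower with 10 nm silica in the brighter probe sets (adjusted p = 0.0295) and with 1 probe set per gene (0.0271). It was also called lower with the replicate number as a block (0.00612), with array weights (0.00101) and with the index as a covariate (0.00472). A second Cd28 probe set gave -0.20 ± 0.16 (adjusted p = 1). Cd28 is 1 of 7 measured T cell markers, of which 0 were called between the sizes (2 lower at an unadjusted p under 0.05), and whose array medians were 4.43 to 5.00 with 10 nm and 4.48 to 4.85 with 500 nm silica. With the brightest probe set standing for each gene, the next smallest p-values on the lower side belonged to Krt16, Adra1b, Gpr34 and Pla2g15. Their differences were -0.54 to -0.51, with adjusted p from 0.18 to 0.314. Krt16 (3.5 with 10 nm and 4.1 with 500 nm silica), Adra1b (4.4 and 4.9) and Gpr34 (3.9 and 4.4) were dim. They lay in or below the range of the marker medians of other cell types, while Pla2g15 was brighter (6.8 and 7.3). Slc40a1, the iron exporter ferroportin, differed by -0.73 ± 0.21 by its brightest probe set and by -0.91 ± 0.19 by its second, neither of which passed (adjusted p = 0.654 and 0.128). Some alternatives called the brightest lower with 10 nm silica. These were the replicate number as a block (adjusted p = 0.0297), array weights (0.0196) and the index as a covariate (0.000547). The brightest read 7.23, 6.98 and 7.17 with 10 nm silica, against 7.93, 7.71 and 7.93 with 500 nm silica and 6.18, 6.12 and 7.01 without particles, so the 500 nm arrays were the highest. Its rise of 1.42 with 500 nm silica over untreated cells was called (adjusted p = 0.00173).

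Per gene, with the brightest probe set standing for each, 9 of 12393 genes were called (0.0726%), all higher with 10 nm silica, and the median difference over all genes was 0.02. The 10 nm arrays all lay above the 500 nm arrays for 6.54% of genes and all below for 3.72%. Of 23 lists with 519 measured genes, 6 held 1 called member each and 17 held none. The lists were chosen with earlier results of these data known, so their counts and shares are descriptive only. Members named below beyond the called ones and the member with the smallest p of each list were chosen after their values were seen.

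Immediate early transcription factors had 1 of 25 members called, Egr2, and a median difference of 0.23. In this list 11 members had all 10 nm arrays above the 500 nm arrays (44%) and 1 had them below. Egr1, the best known member of the Egr family, averaged 11.04 ± 0.18 in 10 nm, 10.19 ± 0.15 in 500 nm exposed cells and 10.62 ± 0.28 in untreated cells (SD, n = 3 each). Its size difference of 0.84 ± 0.17 did not pass (adjusted p = 0.099). Fosl1, an AP-1 subunit, differed by 0.50 ± 0.12 (adjusted p = 0.291) and Srf by 0.45 ± 0.11 (adjusted p = 0.279). Fos went the other way, at 6.69 ± 0.23 with 10 nm and 7.03 ± 0.15 with 500 nm silica, a difference of -0.35 with an interval from -0.75 to 0.06.

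Negative regulators of MAP kinase signalling had 1 of 17 members called, Dusp16, with a median of 0.15 and 8 members non-overlapping upward (47.1%). Dusp6, a phosphatase of ERK, differed by 0.60 ± 0.15 (adjusted p = 0.291), Dusp2 by 0.59 ± 0.17 (adjusted p = 0.656) and Dusp1 by 0.40 ± 0.09 (adjusted p = 0.246). In the list of the urokinase system, matrix and EGF family, Hbegf was the 1 of 18 called and 4 members did not overlap upward (22.2%). Pdgfb, a platelet-derived growth factor chain, differed by 0.78 ± 0.29 (adjusted p = 1). Among cytokines and chemokines 1 of 27 was called, Ccl4, with a median of 0.17 and 7 members non-overlapping upward (25.9%). Tnf, the inflammatory cytokine, averaged 10.16 ± 0.12 with 10 nm and 9.81 ± 0.07 with 500 nm silica (0.35 ± 0.12; adjusted p = 0.898).

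The NF-kB list had none of its 20 members called (0 by limma), with 6 higher and 0 lower at an unadjusted p under 0.05, against 326 higher and 130 lower among all 12393 genes. Its median was 0.21, and 10 members did not overlap upward (50%; 8 after quantile normalization) and 0 downward. Traf1, an adaptor of TNF receptor signalling, read 6.98, 6.90 and 6.55 with 10 nm silica, against 6.38, 6.19 and 6.21 with 500 nm silica and 6.33, 6.38 and 6.31 without particles. That difference of 0.55 ± 0.17 did not pass (adjusted p = 0.773). Relb, an NF-kB subunit, differed by 0.54 ± 0.22 and Nfkbie, an inhibitor of NF-kB, by 0.36 ± 0.18. Against untreated cells the list medians were 0.04 with 10 nm and -0.10 with 500 nm silica.

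Further lists with raised medians were mRNA decay and short-lived regulators (0.15; 1 of 30 called, Sertad1; 9 non-overlapping upward and 2 downward), actin and SRF targets (0.13; 0 of 27 called, 5 higher and 2 lower at an unadjusted p under 0.05; 8 upward and 1 downward) and hypoxia, glycolysis and lipid droplets (0.10; 0 of 22 called, 5 higher unadjusted; 8 upward and 0 downward). Their leading uncalled members were Nab2, a co-repressor of Egr factors (0.58 ± 0.17), Arc, and Adm, the vasoactive peptide adrenomedullin (0.53 ± 0.11; adjusted p = 0.143). The p53 list held Gadd45b as its 1 of 21 called, with a median of 0.04. Cdkn1a, the cell cycle inhibitor p21, differed by 0.39 ± 0.09 (adjusted p = 0.256). The medians of these 9 lists, and of the inflammasome and interferon lists, stayed positive under every alternative tried, while those of the other 12 took both signs. The index of RNA quality was also higher in the 10 nm arrays. With it as a covariate the medians were 0.22 for immediate early, 0.22 for NF-kB, 0.18 for cytokine, 0.19 for MAP kinase feedback, 0.097 for urokinase and EGF family (0.12 without it), 0.14 for mRNA decay, 0.094 for actin, 0.21 for hypoxia and 0.0073 for p53 genes.

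**Figure D2:**
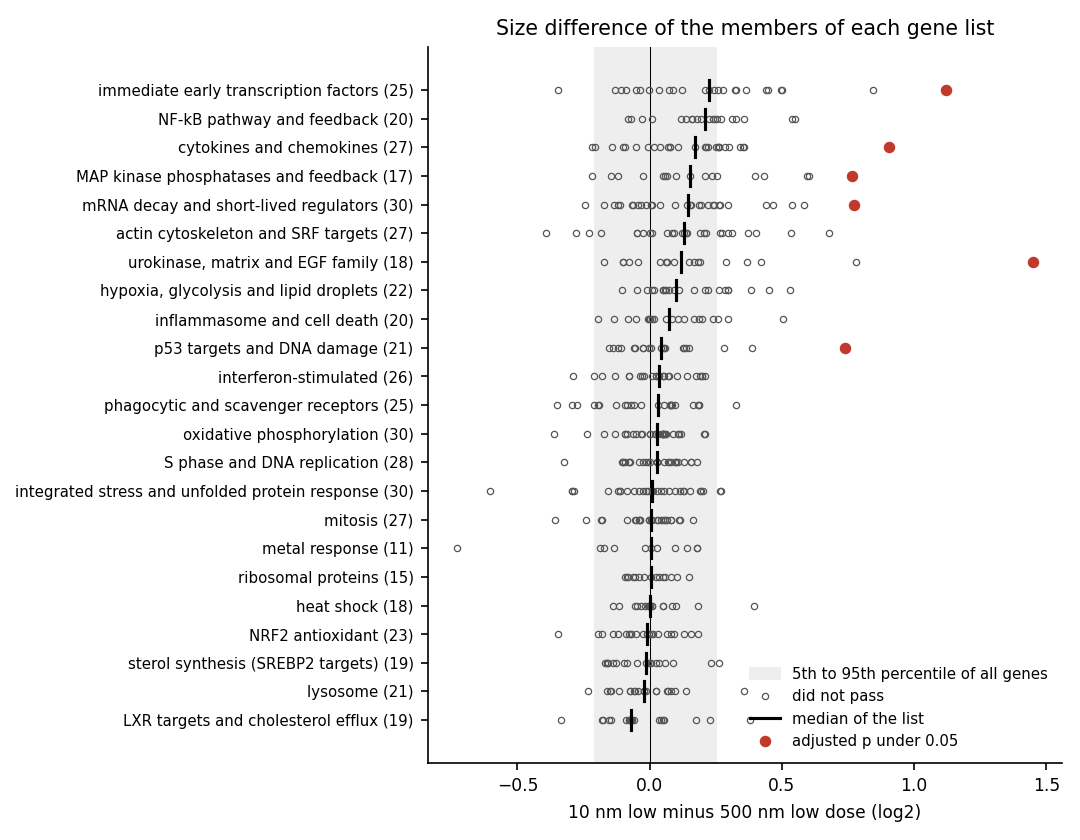
Difference of each measured list member between 10 nm low and 500 nm low dose cells (log2, horizontal) for the 23 lists, with the number measured in parentheses; filled points passed the adjusted p, bars are list medians and the band spans the 5th to 95th percentile of all genes. Called members, 1 each, lie in the immediate early, MAP kinase feedback, cytokine, urokinase and EGF family, short-lived regulator and p53 lists, and the highest medians are those of the immediate early (0.23) and NF-kB (0.21) lists.

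Phagocytic and scavenger receptors had 0 of 25 members called, 0 higher and 1 lower at an unadjusted p under 0.05, with 0 non-overlapping upward and 4 downward (16%). The 4 were Scarb1, Tlr4, Colec12 and Fcgr1, with differences of -0.19, -0.21, -0.27 and -0.29, each with an adjusted p of 1. In the list of integrated stress and unfolded protein genes 0 of 30 were called, 0 higher and 2 lower unadjusted. Xbp1, a transcription factor of the unfolded protein response, differed by -0.29 ± 0.10 (adjusted p = 0.898). The NRF2, heat shock, sterol, LXR, lysosome, interferon, S phase, mitosis, oxidative phosphorylation, ribosomal protein, metal and inflammasome lists held 0 called members (4 higher and 2 lower at an unadjusted p under 0.05), and their medians lay between -0.07 and 0.07. Their members with the smallest p were Mafk (0.18), Bag3 (0.40), Nsdhl (-0.14), Mylip (-0.33), Gaa (0.36), Igtp (0.20), Ccne2 (-0.32), Top2a (0.16), Ndufb5 (-0.24), Rps6 (0.15), Slc40a1 and Bcl2l11 (0.50), none of which passed.

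Against untreated cells, 140 probe sets were called with 10 nm silica (0.619%; 110 or 0.486% higher, 30 or 0.133% lower) and 76 with 500 nm silica (0.336%; 61 or 0.27% higher, 15 or 0.0663% lower). Both comparisons share the untreated arrays, so their values are given side by side and no overlap was counted. Whether untreated cells were also moved to serum-free medium is not stated, so particles and medium cannot be told apart in either comparison. Without untreated replicate 3, the array with the high 3 prime index, 115 and 63 were called. Without 10 nm replicate 1 the 10 nm count was 80, and without 500 nm replicate 1, 2 or 3 or untreated replicate 1 the 500 nm counts were 47, 48, 45 and 49.

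Atf3, a stress-induced transcription factor, read 10.72, 10.89 and 10.74 with 10 nm silica, against 10.71, 10.67 and 10.60 with 500 nm silica and 8.62, 8.75 and 8.79 without particles. It was higher than in untreated cells by 2.06 with 10 nm (adjusted p = 6.27e-09) and by 1.94 with 500 nm silica (adjusted p = 1.77e-08). The size difference of 0.12 had an interval from -0.11 to 0.35. Jun, the AP-1 subunit, rose by 1.59 with each size, with a size difference whose interval ran from -0.26 to 0.25. Cxcl2, a chemokine that draws neutrophils, read 9.03, 9.10 and 8.92 with 10 nm silica, against 8.67, 8.65 and 8.71 with 500 nm silica and 6.74, 6.89 and 7.22 without particles. It rose by 2.07 with 10 nm and 1.73 with 500 nm silica. Its size difference of 0.34 ± 0.13 did not pass (adjusted p = 1), although the 10 nm arrays all lay above the 500 nm arrays. Ccl3, a chemokine related to Ccl4, rose by 1.47 with 10 nm and 1.29 with 500 nm silica, and its size difference of 0.17 had an interval from -0.14 to 0.49.

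Plk2, a polo-like kinase induced by stress, rose by 1.86 with 10 nm and 1.72 with 500 nm silica (size difference 0.15, interval -0.40 to 0.70). For Cxcr4, the receptor of the chemokine CXCL12, and Tent5c, a poly(A) polymerase, the 500 nm values were the higher ones. Cxcr4 read 7.68, 7.51 and 7.19 with 10 nm silica, against 8.23, 7.75 and 7.72 with 500 nm silica and 5.93, 6.08 and 6.24 without particles. Its size difference was -0.44 ± 0.17 (adjusted p = 1), beside rises of 1.38 with 10 nm and 1.81 with 500 nm silica. Tent5c rose by 1.55 with 10 nm and 1.79 with 500 nm silica, with a size difference of -0.24 and an interval from -0.59 to 0.11. The stress response genes Ddit3, Trib3 and Chac1 were called higher with both sizes, by 0.88, 0.63 and 0.58 with 10 nm and by 0.69 for each with 500 nm silica.

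Among genes that fell, Klf4, a Krüppel-like transcription factor, read 5.98, 6.54 and 6.05 with 10 nm silica, against 6.14, 6.22 and 6.60 with 500 nm silica and 7.10, 7.66 and 7.51 without particles. It fell by 1.23 with 10 nm and by 1.10 with 500 nm silica, with a size difference of -0.13 and an interval from -0.49 to 0.22. Ptpro, a receptor-type tyrosine phosphatase, fell by 0.77 with 10 nm and by 0.78 with 500 nm silica. Gpr155, Sesn1 and Sgpp1 were called lower with 10 nm silica, by 0.80, 0.73 and 0.68, beside values of -0.59, -0.68 and -0.31 with 500 nm silica that did not pass. Pde4b, a cyclic AMP phosphodiesterase, and Akr1b10, an aldo-keto reductase, were called lower with 500 nm silica, by 0.84 and 0.73, beside values of -0.65 and -0.56 with 10 nm silica that did not pass. None of these 5 genes passed the test between the sizes. Leaving out single arrays ended some of these calls: Gpr155 without 10 nm replicate 1 or 3 or untreated replicate 2 (adjusted p up to 0.0718), Sesn1 without 10 nm replicate 1 or 3 or any untreated array (up to 0.139), Pde4b without 500 nm replicate 1 or 2 or untreated replicate 1 or 2 (up to 0.106), and Akr1b10 without any 500 nm array or untreated replicate 1 or 3 (up to 0.118). Ptpro lost its 10 nm call without 10 nm replicate 1 (0.0606) and its 500 nm call without 500 nm replicate 2 or 3 (0.133 and 0.0581). On the 6 arrays of each comparison alone none of these 6 genes or Klf4 was called, with adjusted p from 0.105 to 0.611.

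Over the lists, 7 immediate early genes were called higher with 10 nm silica (Atf3, Jun, Maff, Fosl1, Ier3, Ier5 and Klf2) and 4 with 500 nm silica (Atf3, Jun, Maff and Klf2), where 0.573% and 0.323% of all genes were. Lower calls in this list were Klf4 with 10 nm silica, and Klf4 and Egr2 with 500 nm silica, where 0.113% and 0.0565% of all genes were called lower. MAP kinase feedback genes called higher numbered 5 with 10 nm (Dusp1, Dusp2, Dusp16, Rgs1 and Rgs2) and 2 with 500 nm silica (Dusp1 and Rgs1). Cytokines and chemokines called higher were Ccl4, Cxcl2, Ccl3 and Tnf with 10 nm silica and the first 3 of these with 500 nm silica. Of the genes called with 10 nm silica alone, Dusp16 passed the test between the sizes, while Fosl1, Ier3, Ier5, Dusp2, Rgs2 and Tnf did not.

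Over the whole dose range, the called genes took several courses. The level of Hbegf with 10 nm silica was 7.0 ± 0.20 at 1, 7.92 ± 0.15 at 4 and 8.0 ± 0.24 at 10 times the low area, and with 500 nm silica 5.55 ± 0.35 at 1, 6.41 ± 0.17 at 2 and 7.54 ± 0.34 at 4 times. At 4 times the low area its size difference was 0.38 ± 0.19 and did not pass (adjusted p = 0.443). Egr2 kept a difference at the higher area, where it stood at 11.34 with 10 nm and 9.34 with 500 nm silica, 1.99 ± 0.15 apart (adjusted p = 2.03e-07). Neat1 also remained higher with 10 nm silica there, by 1.08 ± 0.13 (adjusted p = 8.44e-05). Of the 11 called probe sets, 5 were called at the higher area, where 2.78% of all were. Those of Egr2, Neat1 and Sertad1 (0.48) were again higher with 10 nm silica, while both Gadd45b probe sets were lower with it (-0.90 and -1.05).

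**Figure D3:**
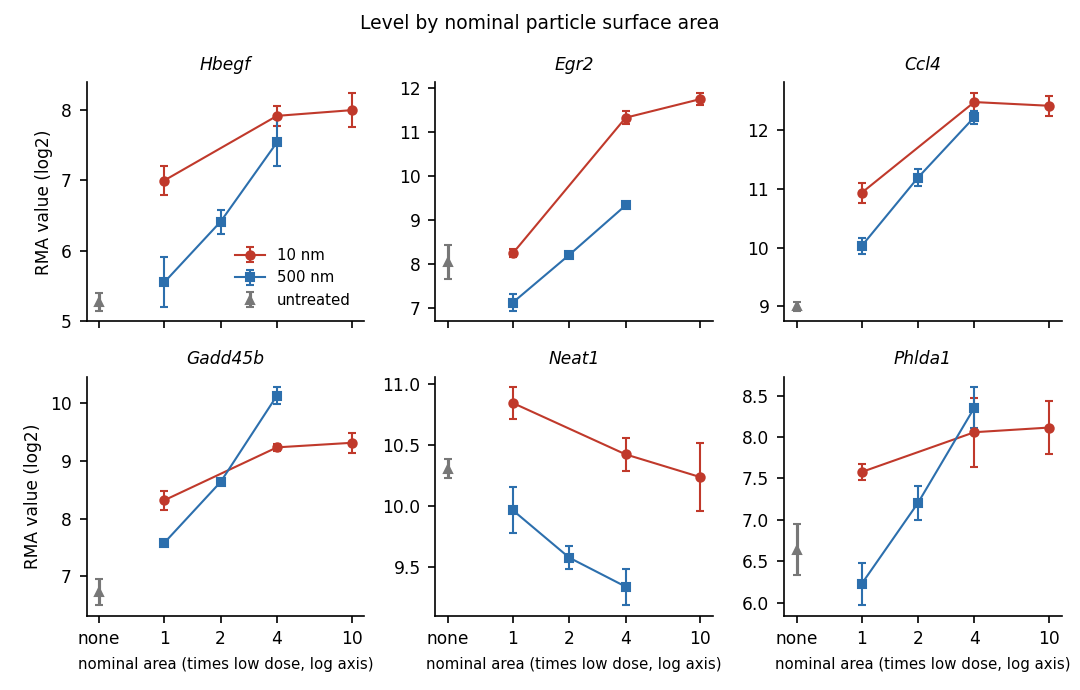
Mean log2 RMA value (± SD, n = 3 arrays) of 6 called genes against nominal particle area in multiples of the low dose (log axis; untreated cells are drawn at its left end, off the scale). The 10 nm line lies above the 500 nm line at 1 times in each panel, and at 4 times in all but Gadd45b and Phlda1, where the 500 nm mean is higher.

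Whether the size difference itself changed with area was tested as the difference at the low area minus the difference at 4 times that area. It was called for 153 probe sets (0.676%), 66 of them positive (0.292%) and 87 negative (0.385%). This split depended on scaling, with 84 positive and 73 negative after centring each array and 95 and 66 after scaling. The count was 96 without 10 nm low replicate 1, 94 without 500 nm low replicate 2 and without replicate 3, 97 without 10 nm mid replicate 2 and 101 without 500 nm high replicate 3. Among the 66 positive ones, the 10 nm value was the higher in 60 at the low area and in 0 at the higher area. Among the 87 negative ones, it was the higher in 35 at the low area and in all 87 at the higher area. Both sets were chosen by the difference between the 2 areas, which in part sets these signs.

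Of the 11 probe sets called at the low area, 4 passed this test, all positive. The 11 were chosen by the same low-area difference that enters the test. That choice favours passing and a positive sign, so the count is descriptive only. Phlda1 differed between sizes by 1.35 at the low and -0.30 at the higher area (1.65 ± 0.30; adjusted p = 0.0102). Dusp16 differed by 0.77 at the low and -0.07 at the higher area (0.84 ± 0.15; adjusted p = 0.00872). Gadd45b differed by 0.74 at the low and -0.90 at the higher area (1.64 ± 0.17; adjusted p = 3.65e-05), and its second probe set gave 1.65 ± 0.15. For Gadd45b the order of the sizes was thus opposite at the 2 areas, with both differences called.

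The NF-kB list stood at 6 of 20 members called positive and 0 negative, where 0.371% of all genes were called positive, with a list median of 0.71 against 0.05 over all genes. The 6 were Rel (1.66), Traf1 (1.45), Zc3h12a (1.19), Birc3 (0.86), Nfkbib (0.76) and Tnip1 (0.71). Rel, an NF-kB subunit, read 7.24, 7.08 and 7.07 with 10 nm and 7.12, 6.76 and 6.74 with 500 nm silica at the low area. At the higher area it read 7.41, 7.49 and 7.33 with 10 nm and 8.93, 8.97 and 8.53 with 500 nm silica, so the arrays of the 2 sizes overlapped at the low area and not at the higher one. Of 27 cytokines and chemokines 4 were called positive and 0 negative, namely Cxcl10 (1.81), Cxcl2 (1.35), Tnf (1.01) and Csf1 (0.91). Cxcl2 stood at 9.02 with 10 nm and 8.68 with 500 nm silica at the low area, and at 11.94 with 10 nm and 12.94 with 500 nm silica at the higher area.

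Other large positive values were H1f2, a linker histone (2.17 ± 0.16), Acod1, the enzyme that makes itaconate (1.89 ± 0.14), and Pim1, a serine/threonine kinase (1.71 ± 0.33). For H1f2 the low-area difference was 0.12 and the higher-area difference -2.06. Immediate early genes ran to both sides, with 1 of 25 called positive (Maff) and 4 negative (Klf2, Nr4a1, Nr4a2 and Klf4), where 0.29% of all genes were negative. Klf2, a Krüppel-like factor, read 7.04, 6.82 and 6.68 with 10 nm and 6.97, 6.66 and 6.79 with 500 nm silica at the low area. At the higher area it read 10.22, 10.53 and 10.60 with 10 nm and 7.50, 7.50 and 7.65 with 500 nm silica, and the test gave -2.86 ± 0.19 (adjusted p = 2.04e-07). The orphan nuclear receptor genes Nr4a1 (-1.98 ± 0.26) and Nr4a2 (-1.65 ± 0.18), the small GTPase gene Rhob (-1.80 ± 0.39) and the non-coding RNA gene Lncpint (-1.86 ± 0.27) were also called. None of these 5 differed between the sizes at the low area by the test. The Rhob call (adjusted p = 0.0387) was lost without 10 nm low replicate 1 or 3, 500 nm low replicate 1 or 2, 10 nm mid replicate 1 or 2, or 500 nm high replicate 2 or 3 (adjusted p = 0.0668 to 0.121). The Pim1 call (adjusted p = 0.0192) was lost without 10 nm low replicate 1 or 3, 500 nm low replicate 2, 10 nm mid replicate 1 or 2, or 500 nm high replicate 3 (adjusted p = 0.0584 to 0.0645).

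**Figure D4:**
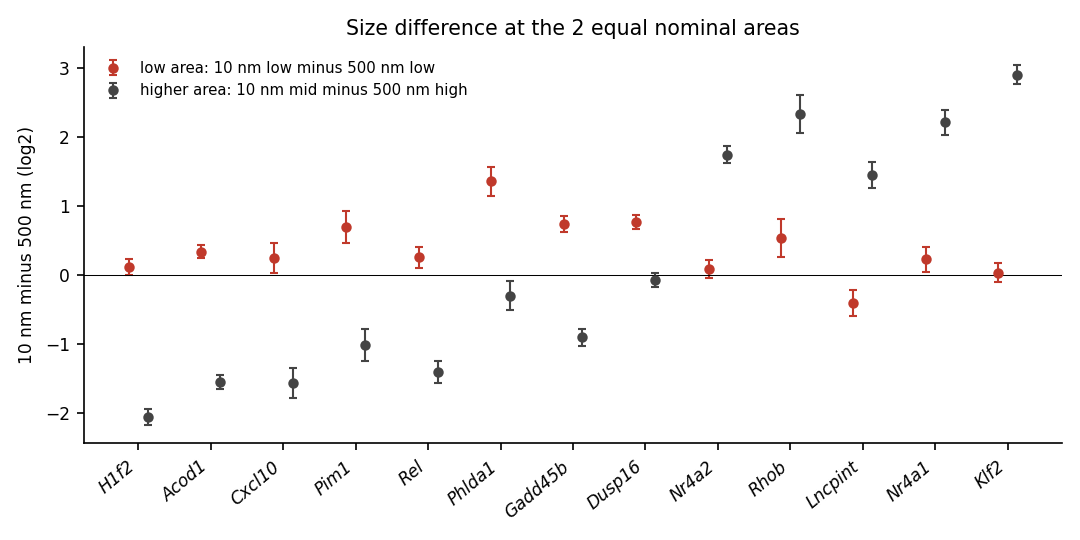
Difference between the sizes (10 nm minus 500 nm, log2, ± SE) at the low area (red, 10 nm low minus 500 nm low) and at 4 times that area (grey, 10 nm mid minus 500 nm high) for 13 genes whose size difference changed between the areas. Phlda1, Gadd45b and Dusp16 lie at 0.74 to 1.35 at the low area and at -0.90 to -0.07 at the higher one, while the other 10 lie between -0.41 and 0.70 at the low area and beyond 1 in size at the higher one.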

How the data were processed

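Messenger RNA was measured in RAW 264.7 cells on 21 Affymetrix mouse arrays, 3 for each of 7 groups taken from the sample titles. Per the labels' protocols, total RNA was copied with an oligo-dT primer into biotin-labelled RNA, which favours 3 prime ends. The protocols describe different plates for growth and treatment, so the vessel is not settled. The authors deposited log10 values made with RMA, a step named in the submitters' processing notes. The RMA version is not given in the sources used here. The method subtracts background and summarises each probe set, which compresses changes of dim ones. The log base was read from the values, 0.641 to 4.34, since base 10 puts the brightest at 22019 intensity units, so every fold change rests on it. Multiplication by 3.32 turned them into log2 values. Precision is limited by the number of arrays, which have no depth.

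Of 22690 probe sets, 64 controls were left out and 22626 were tested with limma 3.58.1 in R 4.3.3 (group as the only factor, all 21 arrays, 14 residual and 4.02 prior degrees of freedom), two-sided, with Benjamini-Hochberg adjustment over all of them. The fit was tested on simulated data. The platform annotation gave 1 symbol for 20380 probe sets, several for 691 and none for 1555. Of the 20380, 20351 matched RefSeq (GRCm38.p6) by gene ID. Of several probe sets for a gene, the brightest on average over all arrays stood for it, giving 12393 genes. Named genes were, between the sizes, up to 12 called with non-overlapping arrays in each direction (filled to 5 by smallest p), 5 in each direction of the other comparisons, and from each list up to 3 called members or the one with the smallest p. The members, lists and tests were chosen with earlier results of these data known. The 23 pathway lists held 519 measured genes and 8 further lists held markers of cell types. The main fit did not pair arrays by replicate number. Deviations from the group means of same-numbered 10 nm and 500 nm low-dose arrays correlated by 0.0926, 0.199 and 0.424. Each 10 nm array matched the 500 nm array of its own number best, a hint of pairing that does not come from the design. In the other pairs of groups examined, same-numbered arrays correlated by -0.108 to 0.76. Replicate 3 matched replicate 3 best in every pair, while replicates 1 and 2 did so in some pairs only. Alternatives were the replicate number as a block, quantile normalization, centring, scaling, the brighter probe sets (mean at or above the median), 1 probe set per gene, only the arrays compared, a variance trend, array weights and leaving out each array; the 3 prime index as a covariate was added after seeing the data. Python 3.11.15 with matplotlib 3.10.9 drew the figures.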

Additional observations from a re-analysis of the deposited data

Results flagged for a closer look

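The size difference (10 nm minus 500 nm) at the low area differed, by the test across all probe sets, from that at 4 times the area for these genes. Positive values, where 10 nm silica was the higher at the low area relative to the higher area, were 1.65 for Phlda1, 0.84 for Dusp16, 1.64 and 1.65 for the 2 Gadd45b probe sets, 2.17 for H1f2, 1.89 for Acod1, 1.81 for Cxcl10, 1.71 for Pim1, 1.66 for Rel, 1.35 for Cxcl2, 1.16 for Pde4b and 1.45 for Traf1. Negative values were -2.86 for Klf2, -1.98 for Nr4a1, -1.86 for Lncpint, -1.80 for Rhob, -1.65 for Nr4a2, -1.10 for Klf4, -1.15 for Sgpp1 and -0.81 for Colec12. Among them, Phlda1, Dusp16 and Gadd45b were called between the sizes at the low area. The largest adjusted p of this set was 0.0457, for Colec12. Groups of 3 arrays were not tested for single outlying arrays.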

How the results depend on the processing

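The 11 calls between the sizes (10 nm against 500 nm at the low area) numbered 12 after quantile normalization, 11 after centring, 13 after scaling, 16 in the brighter probe sets (mean at or above the median), 11 with 1 probe set per gene and 12 with a variance trend. Of these, 1 in the brighter probe sets and 1 with 1 probe set per gene were lower. The count was 40 (4 lower) with the replicate number as a block, 4 on the 6 arrays alone, 143 (26 lower) with array weights and 43 (5 lower) with the 3 prime index, and ran from 0 to 11 when each array was left out. For 10 nm against untreated cells (140) the block gave 320, the 6 arrays of that comparison alone 15, array weights 1936 and the index 370. The count was 80 to 126 when an array was left out. For 500 nm against untreated cells (76) these values were 171, 12, 385 and 161, with 45 to 79. For the change of the size difference with area (153) they were 402 with the block, 2373 with weights, 659 with the index and 86 with 1 probe set per gene, with 94 to 150. The cause was not tested, except that the fit on 6 arrays has fewer arrays and that with 1 probe set per gene fewer features. No value of a named gene changed sign: 948 kept their side of the threshold, 88 lost it and 20 gained it. List medians stayed within the spread between arrays in 356 of 368 values, and counts of non-overlapping members within 1.5 times in 49 of 69. Every low-dose array of 10 nm silica correlated best, in its deviations, with the 500 nm array of its own number, a hint from the data and not from the design. With 3 arrays a group, differences under about 0.61 were not called between the sizes, and dim probe sets are compressed by the processing.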
